A study of Mus musculus with 6 samples.

Results

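The wild-type hippocampus of 2-week-old mice was described from the 3 WT samples among the 6 samples of the series. These were chosen by the genotype label alone. Each sample is the hippocampus of an individual female mouse of the B6J strain, and the WT mice are named WT1, WT2 and WT3. The other 3 samples come from Prmt9 KO littermates of the same age and sex, and they were used only to check the genotype labels. Whether the WT mice carry an unrecombined floxed Prmt9 allele is not given in the sources used here. Polyadenylated RNA was sequenced as paired reads of 100 bases from stranded libraries, and levels were deposited for 118783 transcripts and 36008 genes. The unit is TPM, a level per transcript length scaled to the same total in every library.

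The hippocampus is the cortical region that forms episodic and spatial memory. Its glutamatergic granule cells and pyramidal cells lie in dense layers, with GABAergic interneurons, astrocytes, oligodendrocyte lineage cells, microglia and vessels between them. In the second postnatal week excitatory synapses are being formed in large numbers, receptor subunits are exchanged and axons begin to be myelinated. RNA from a piece of tissue mixes all these cells, so that fewer cells of a type and less RNA per cell cannot be told apart.

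The libraries held 194098391 estimated counts in WT1, 249217021 in WT2 and 229855842 in WT3. WT1 stood apart from the other mice. Over the 15126 genes with a mean of at least 1 TPM, Pearson's r of log2 TPM was 0.997 between WT2 and WT3 and 0.946 and 0.947 between WT1 and these mice, given as a description across genes. The median coefficient of variation of a gene was 21.3% over the 3 mice and 2.50% over WT2 and WT3. The WT1 library had no count for 37.4% of transcripts, against 23.8% in each of the others. WT1 lay below both other mice for 67.0% of these 15126 genes and above both for 29.0%, and the median ratio of WT1 to the mean of WT2 and WT3 was 0.784. All 3 mice share their age, sex, strain and tissue labels. Values are therefore given for each mouse, and differences that rest on WT1 are named as such. The Prmt9 gene itself, which encodes the arginine methyltransferase studied in this series, was at 11.8, 15.25 and 14.96 TPM in WT1, WT2 and WT3 and at 3.93 to 4.67 TPM in the Prmt9 KO mice, in the direction of the labels.

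Of the 36008 genes, 14294 reached 1 TPM in each of the 3 mice. Single mice had 14769, 15167 and 15214 genes at this level. A further 9264 genes, or 25.7%, were at 0 TPM in all mice. Gene levels were spread over a wide range in which few genes held most of the RNA. In WT2, 80 genes reached 1000 TPM and held 26.3% of the summed TPM, and in WT3 the same class had 83 genes and 26.6%. WT1 had 134 such genes, which held 32.9%. The class from 100 to under 1000 TPM had 1491, 1734 and 1718 genes in WT1, WT2 and WT3 and held 37.9%, 40.8% and 40.3% of the TPM. Genes from 1 to under 10 TPM, 5558, 5072 and 5106 of them, held only 2.45%, 2.15% and 2.18%.

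**Figure D1:**
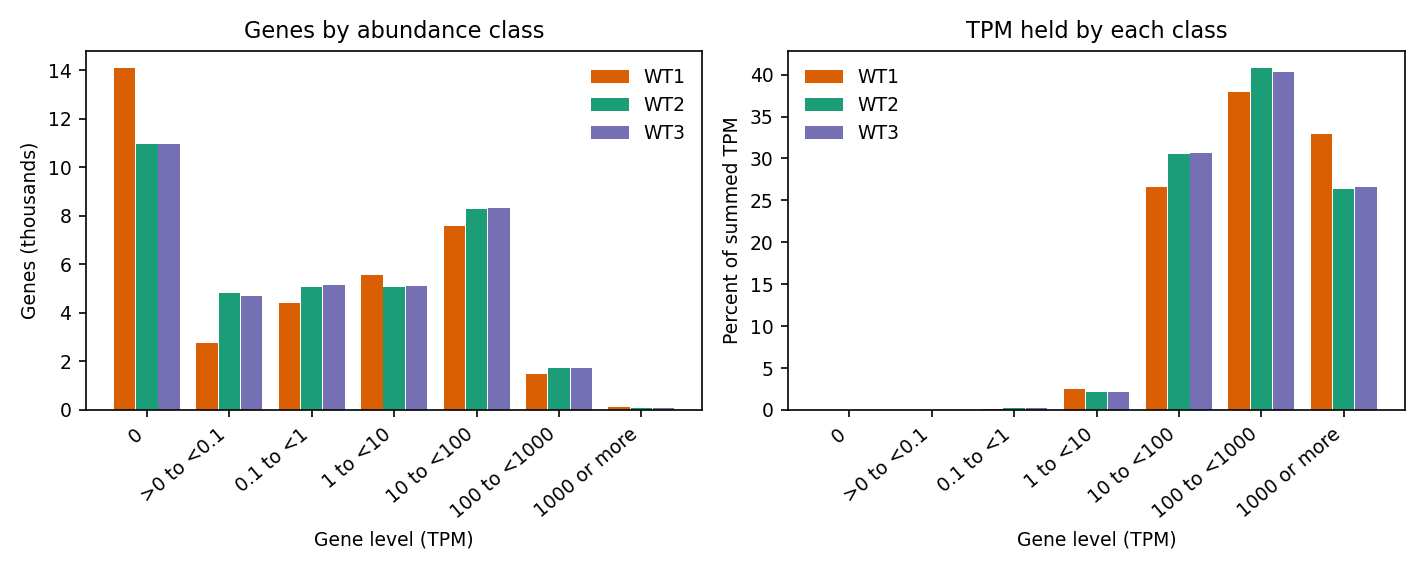
Number of genes (left, in units of 1000 genes) and percent of the summed TPM (right) by gene level in TPM, with a bar for each WT mouse. WT1 has more genes at 0 TPM (14089 against 10953 and 10941) and more at 1000 TPM or above (134 against 80 and 83), while WT2 and WT3 nearly coincide in every class.

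The 10 most abundant genes held 8.75%, 12.5% and 12.2% of TPM in WT1, WT2 and WT3, and the 100 most abundant held 29.1%, 28.2% and 28.2%. The smallest number of genes that together held 50% of TPM was 425 in WT1 and 638 and 636 in the others. Thus the RNA of WT1 was less concentrated in its first 10 genes and more concentrated in its first 1000, which held 63.1% against 56.9% in WT2 and in WT3. The class a gene fell into was the same in WT2 and WT3 for 87.8% of genes, and in WT1 and WT2 for 74.7%.

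Protein-coding genes made up 21894 of the genes and 93.6% to 94.0% of TPM, and 13766 of them reached 1 TPM in every mouse. Pseudogenes of every kind numbered 13525. Of these, 507 reached 1 TPM in every mouse, and all together they held 6.16%, 6.32% and 5.98% of TPM in WT1, WT2 and WT3. Long noncoding RNAs are nearly all outside the deposited tables. Of the 13 listed, which include Malat1, Meg3 and Xist, only Snhg11, a host gene of small nucleolar RNAs, has a row, and it was at 311, 650 and 658 TPM. The others were not analysed here. Genes of the Y chromosome held 0.00376% to 0.00840% of TPM, and none of the 4 Y-linked genes listed, Kdm5d, Uty, Ddx3y and Eif2s3y, reached 1 TPM in all 3 mice. Kdm5d was the highest of them, at 0.514, 1.15 and 1.14 TPM.

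The most abundant genes of the nuclear genome were led by sequences that copy the mitochondrial genome. Of the first 10, Gm29216, Gm28661, Gm10925 and Gm28437 are unprocessed pseudogenes on chromosome 1, and Gm20594 is a short gene on chromosome 6 that is annotated as protein-coding. The other 5 were Mbp, Apoe, Cst3, Ttr and Gapdh. Mbp, which encodes myelin basic protein, had the highest mean of these, and it was at 1431 TPM in WT1, 6618 in WT2 and 5895 in WT3. Apoe, the main lipid carrier secreted by astrocytes, was at 4666, 3880 and 3896 TPM. Cst3, a secreted inhibitor of cysteine proteases, was at 5370, 2795 and 2799 TPM. These genes fell into different patterns over the mice, since Mbp was lowest and Cst3 highest in WT1. Ttr encodes transthyretin, a thyroid hormone carrier made by the choroid plexus, and ranged most, from 7157 TPM in WT1 to 589 in WT2 and 1950 in WT3. Gapdh, a glycolytic enzyme, was steadier, at 3657, 2838 and 2913 TPM.

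The mitochondrial genome encodes 13 proteins, all subunits of the respiratory chain or of ATP synthase. Their mRNAs held 7.54% of the gene TPM in WT1, 11.1% in WT2 and 11.2% in WT3, and all 13 were above 1000 TPM in each mouse. mt-Co1, the catalytic subunit of cytochrome oxidase, was the most abundant gene of the whole table, at 13470, 20836 and 21735 TPM. mt-Co3, another subunit of this enzyme, was at 7820, 15597 and 15521 TPM. mt-Cytb, the cytochrome b of complex III, was at 6218, 11472 and 11608 TPM. All these were lowest in WT1, and 10 of the 13 mRNAs lay below both other mice there, against 67.0% of all genes. The NADH dehydrogenase subunits were lower as a group, from mt-Nd4l, at 2921, 9537 and 9516 TPM, and mt-Nd1, at 6545, 7391 and 7280, down to mt-Nd5, the longest of the 13, at 1189, 2599 and 2762. Between them lay mt-Nd4, at 3325, 6084 and 6010 TPM, mt-Nd2, at 2559, 4572 and 4429, mt-Nd3, at 4222, 2422 and 3071, and mt-Nd6, at 2144, 3363 and 3356. Of the ATP synthase subunits, mt-Atp8 was at 8961, 11942 and 8743 TPM and mt-Atp6 at 7249, 7403 and 7253. mt-Co2, the remaining subunit of cytochrome oxidase, was at 8368, 6890 and 10422 TPM.

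These levels cannot be read alone, because a stretch of chromosome 1 from 24612775 to 24616197 (GRCm38, minus strand) carries near-identical sequence. Gm28661 matched mt-Co2 over all of its 681 bases, Gm10925 matched mt-Atp6 over 678 bases and Gm28437 matched mt-Co3 over 783 bases, without a difference. Gm29216 matched mt-Co1 in 486 of 492 bases, and all 6 differences lie at its first bases. Gm28438 matched mt-Nd3 in 344 of 345 bases. The start of Gm29216 and the stretch of mt-Co1 it copies, bases 1054 to 1086 of that mRNA, are shown with the differing bases in capitals, since beyond them reads of the mitochondrial mRNA and of the copy look the same:
Gm29216 (chr1:24616165-24616197, minus strand): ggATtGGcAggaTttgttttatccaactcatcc
mt-Co1 (chrM:6381-6413, plus strand): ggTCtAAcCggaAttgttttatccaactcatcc
The only difference of the mt-Nd3 copy lies near its start:
Gm28438 (chr1:24613097-24613119, minus strand): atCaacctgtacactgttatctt
mt-Nd3 (chrM:9459-9481, plus strand): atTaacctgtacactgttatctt

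The 5 copies together were assigned 32743, 44067 and 39355 TPM in WT1, WT2 and WT3. How the level was divided between gene and copy could differ between WT2 and WT3 where the sum did not, as for mt-Co2. The share of the sum that went to Gm28661 was 68.9% in WT2 and 52.8% in WT3, whereas mt-Co2 and Gm28661 together were at 22156 and 22092 TPM. For mt-Nd3 and Gm28438 the copy took 31.7% in WT2 and 1.95% in WT3, and the sums were 3548 and 3132 TPM. In WT1 the copy of mt-Co3 took 48.5%, against 15.1% and 16.5% in the others. The sum of mt-Co3 and Gm28437 was 15199 TPM in WT1 and 18377 and 18590 in the others, a smaller gap than that of mt-Co3 alone. Taking the 13 mRNAs and the 5 copies as a single quantity gives 107733, 154173 and 151062 TPM. Gm20594 was at 2520, 4133 and 3922 TPM. Its best match among annotated transcripts of other genes was the mitochondrial ribosomal RNA mt-Rnr2, with 385 of its 449 bases identical; this match was looked up after the value of Gm20594 was seen.

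**Figure D2:**
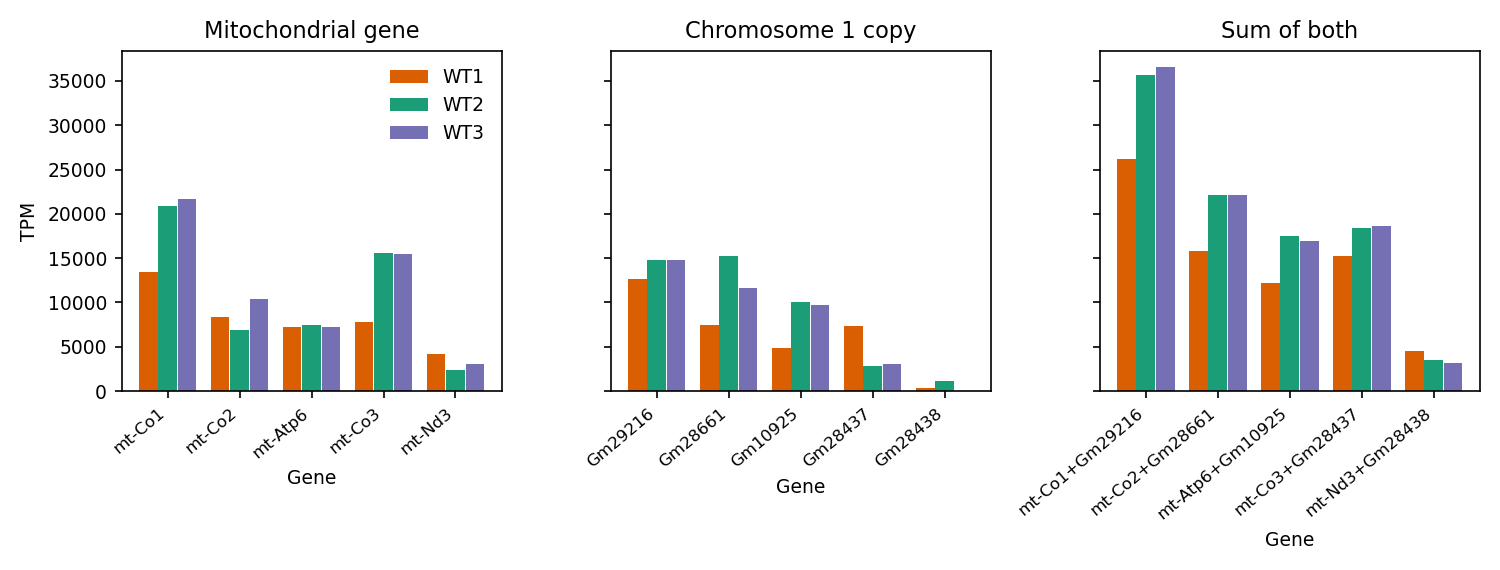
TPM in each WT mouse of 5 mitochondrially encoded mRNAs (left), of their copies on chromosome 1 (middle) and of both together (right). WT2 and WT3 differ for mt-Co2 (6890 and 10422 TPM) and for Gm28661 (15266 and 11670 TPM) but not for their sum (22156 and 22092 TPM).

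Copies were also common among the other abundant pseudogenes. Of the 43 pseudogenes with a mean of at least 100 TPM, 39 had at least 95% of their bases identical to a transcript of another gene, 5 of them to a mitochondrial mRNA and 18 to an mRNA of a gene named Rpl or Rps, which encode cytosolic ribosomal proteins. Gm10123, at 2843, 1109 and 1001 TPM, was identical over 490 bases to Ppia, which encodes cyclophilin A. Rps23-ps1 was at 1363, 594 and 612 TPM and identical over 425 bases to Rps23, itself at a mean of 219 TPM. The levels of such genes and of their copies are uncertain as single values. Gm19220, a processed pseudogene at 1689, 2041 and 3063 TPM, had no such match.

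Neurons were represented by strong expression of synaptic and cytoskeletal genes. The 20 pan-neuronal genes summed to 10225, 9148 and 9067 TPM in WT1, WT2 and WT3, and all exceeded 1 TPM in each mouse. Genes of a list are named in the order of their mean over the 3 mice, which WT1 can decide. The highest mean was that of Uchl1, a neuronal ubiquitin hydrolase, at 1768, 949 and 941 TPM. Snap25, a membrane SNARE of the synaptic vesicle fusion machinery, was at 517, 1269 and 1233 TPM and thus above Uchl1 in WT2 and WT3. Thy1, a surface glycoprotein of projection neurons, was at 1020, 870 and 888 TPM. In WT1, 7 of the 20 genes lay above and 12 below both other mice, shares of the order of the 29.0% and 67.0% over all genes. Of the 10 excitatory markers, which summed to 3291, 4986 and 4849 TPM, Nrgn led, at 1456, 1906 and 1855. Nrgn encodes neurogranin, a postsynaptic calmodulin buffer. It was followed by Camk2a, the alpha subunit of CaM kinase II, at 776, 1704 and 1672 TPM, and by the vesicular glutamate transporter Slc17a7, at 736, 960.0 and 922.

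The 12 genes listed as interneuron markers summed to 2220, 1953 and 1932 TPM, and neuropeptide genes accounted for most of this. In RNA from whole tissue these levels cannot be assigned to interneurons alone. Cck was at 1003, 684 and 658 TPM, Sst, which encodes somatostatin, at 654, 644 and 652, and Npy at 272, 182 and 186. Sst was close in all mice, with a mean of 650 TPM and an SD of 5.11 (n = 3). The sum, in which Cck was the largest member, hides members that went the other way. The median over the 12 genes was 29.9, 45.9 and 45.3 TPM, lowest in WT1. In WT1, 5 of the 12 genes lay above and 7 below both other mice, against 29.0% and 67.0% of all genes. Those below included Gad1, at 90.1, 171 and 167 TPM, Gad2, at 25.6, 47.2 and 46.8, and Slc32a1, at 30.4, 44.6 and 41.6. Of the genes for immature neurons and progenitors, 12 of 13 were above both other mice in WT1, against 29.0% of all genes. Tubb2b, a tubulin of growing neurites, made up most of their sum, at 947, 389 and 382 TPM. Calb2, which encodes calretinin and marks young granule cells and interneurons, was at 117, 74.6 and 70.1 TPM, and Igfbpl1, a gene of newborn neurons, at 41.0, 17.7 and 17.1. The whole list summed to 1195, 554 and 538 TPM.

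Markers of the hippocampal fields and of neighbouring regions were read to describe the labelled tissue. Markers of dentate granule cells, CA1 and CA3 all exceeded 1 TPM in each mouse, a level that 62.9% of all protein-coding genes reached. The dentate list summed to 113, 197 and 192 TPM, the CA1 list to 242, 345 and 343 and the CA3 list to 510, 657 and 655. In the dentate list, Calb1, which encodes the calcium buffer calbindin, was at 30.77, 42.65 and 39.996 TPM, C1ql2, a secreted mossy fibre synapse protein, at 24.8, 44.8 and 43.0, and the granule cell transcription factor Prox1 at 24.05, 38.42 and 38.58. Among the CA1 genes Mpped1 was at 90.8, 120 and 123 TPM, Wfs1 at 52.3, 111 and 111 and Fibcd1 at 54.9, 67.8 and 64.8. Among the CA3 genes Cpne7 was at 174, 302 and 311 TPM, Bok at 139, 104 and 97.8 and Spock1 at 62.7, 85.1 and 78.9. Markers of other regions summed to 140, 199 and 209 TPM over 15 genes. Of these, 13 exceeded 1 TPM in each mouse, so passing this level cannot tell the regions apart. Ppp1r1b, Rasgrf2 and Fezf2 were the highest, at 40.6 to 49.9, 17.95 to 44.11 and 25.6 to 32.9 TPM, and the midbrain and hindbrain gene En1 stayed below 0.0850 TPM in each mouse.

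Among the glial lists, which differ in their number of genes, the astrocyte markers had the largest sum in each mouse. The 20 genes summed to 16277, 16915 and 17264 TPM, led by Apoe and Cst3 as given above and by Sparcl1, a secreted synaptogenic protein, at 803, 1396 and 1429. WT1 lay below both other mice for 18 of the 20, against 67.0% of all genes, whereas Apoe and Cst3 lay above. Oligodendrocyte precursor markers were modest, with a sum of 429, 557 and 508 TPM. Olig1, a lineage transcription factor, was at 129, 159 and 137 TPM, the phosphatase Ptprz1 at 83.1, 96.6 and 99.2, and Gpr17, a receptor of cells entering maturation, at 65.3, 112 and 98.5. Microglia markers summed to 729, 687 and 686 TPM. Of the 14 genes, 8 lay above and 6 below both other mice in WT1, against 29.0% and 67.0% of all genes. The complement genes C1qa and C1qc were at 95.1, 79.8 and 78.2 and at 99.5, 76.5 and 75.6. Members went both ways: Tyrobp, a signalling adaptor, was at 113, 56.6 and 55.3 TPM, whereas the receptor genes Csf1r and Cx3cr1 were at 40.9, 70.6 and 67.2 and at 12.9, 31.3 and 29.5. These 3 genes were chosen after their values were seen.

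Myelin genes separated WT1 most clearly. The 12 genes summed to 2311 TPM in WT1, 12944 in WT2 and 11217 in WT3, so that the mean of WT2 and WT3 was 5.23-fold that of WT1. All 12 were lowest in WT1, against 67.0% of all genes. Beside Mbp, this held for Mobp, which encodes another structural protein of myelin, at 116, 1270 and 1116 TPM. The precursor list had a mean in WT2 and WT3 that was 1.24-fold the WT1 value. The ratio of pan-neuronal to glial TPM, with the glial sum taken over the astrocyte, precursor, myelin and microglia lists, was 0.518 in WT1, 0.294 in WT2 and 0.306 in WT3 (0.372 ± 0.126, mean ± SD, n = 3). Without the myelin list the ratios were 0.586, 0.504 and 0.491. Taken from medians over the members in place of sums, the mean ratio was 3.85, which puts the neuronal level above the glial one. Such a ratio depends on which genes are listed and how they are combined, and is no ratio of cells.

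Vessel markers were led by Bsg, at 968, 637 and 654 TPM, by Ly6c1, at 74.1, 77.9 and 90.25, and by the tight junction gene Cldn5, at 107, 42.2 and 42.6. The place of Cldn5 rests on WT1, since the glucose transporter gene Slc2a1, at 38.2, 65.6 and 72.4 TPM, lay above it in WT2 and WT3. Mural cell markers were led by Vtn, Rgs5 and Myl9, with means of 93.2, 48.3 and 32.9 TPM. The endothelial list summed to 1333, 981 and 1028 TPM, most of it Bsg, and the mural list to 255, 225 and 242. Of the 12 endothelial genes, 5 lay above and 6 below both other mice in WT1, against 29.0% and 67.0% of all genes. Their median ratio of WT1 to the mean of WT2 and WT3 was 0.974. Choroid plexus and ependymal genes varied between all mice, with sums of 7367, 652 and 2048 TPM. Apart from Ttr this was seen in the folate receptor Folr1, at 74.5, 8.17 and 24.6 TPM, and 9 of the 10 genes were highest in WT1, against 29.0% of all genes. Rarres2 was at 44.75, 17.31 and 18.64. Thus WT2 and WT3, alike in most genes, differed in the choroid plexus sum. Blood genes also differed between all mice, with sums of 2560, 4284 and 6339 TPM. The beta globin Hbb-bs was at 1349, 1762 and 2687 TPM, and the alpha globins Hba-a2 and Hba-a1 were at 697, 1447 and 2118 and at 370, 800 and 1155. In the meningeal list Ptgds, a prostaglandin synthase of the leptomeninges that oligodendrocytes also express, was at 532, 769 and 1180 TPM, Igf2 at 123, 68.7 and 91.7 and Dcn at 47.6, 35.17 and 40.45. The part of these cell types in the differences between mice was not tested.

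**Figure D3:**
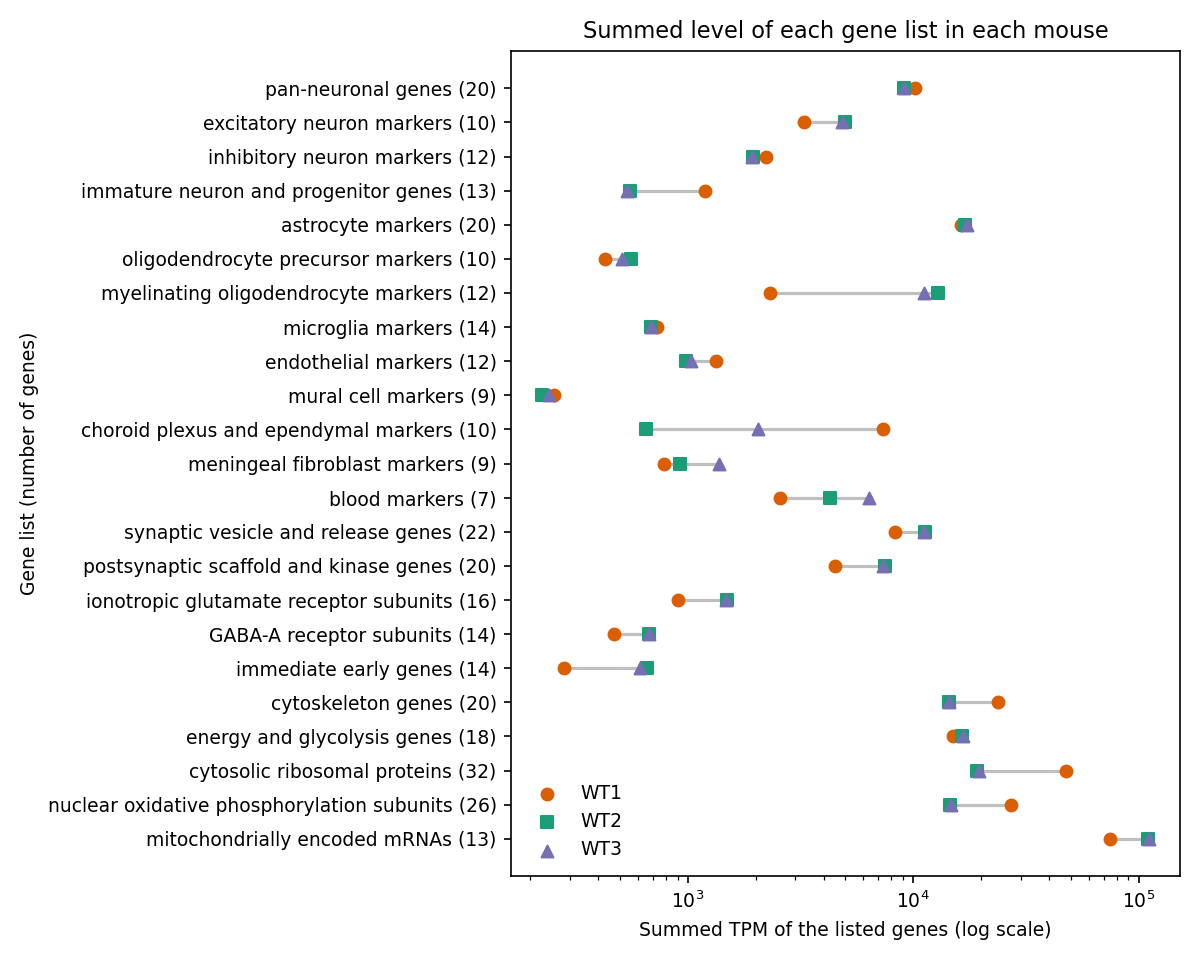
Summed TPM (log scale) of each gene list in WT1, WT2 and WT3, with the number of genes in parentheses. Points of WT2 and WT3 overlap in most lists, and WT1 lies apart in the myelin list (2311 against 12944 and 11217 TPM), the ribosomal list (47417 against 19215 and 19533) and the immature neuron list (1195 against 554 and 538), while the choroid plexus and blood lists differ between all 3 mice.

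Of the 16 ionotropic glutamate receptor subunits, 15 exceeded 1 TPM in each mouse. Among the AMPA receptor subunits, which carry fast excitatory transmission, Gria1 was at 210, 337 and 327 TPM, Gria2, which makes the receptor impermeable to calcium once edited, at 138, 319 and 324, Gria3 at 28.2, 75.9 and 77.1 and Gria4 at 15.4, 26.5 and 24.9. Gria1 and Gria2 were thus of like level in WT2 and WT3, and their ratio was 1.52 in WT1 and 1.06 and 1.01 in the others. The obligatory NMDA receptor subunit Grin1 was at 221, 323 and 322 TPM. Its partner Grin2b, the subunit of early postnatal receptors, was at 25.7, 54.6 and 52.1 TPM and Grin2a, which joins it during maturation, at 15.9, 36.0 and 33.2. The ratio of Grin2a to Grin2b was 0.621, 0.659 and 0.638, or 0.639 ± 0.0189 (mean ± SD, n = 3), so that it was as in the other mice in WT1 although both levels were lower. These ratios were chosen after the levels were seen. Grin2c was at 15.57, 31.01 and 30.21 TPM, Grin3a at 15.99, 13.6 and 13.3 and Grin2d at 13.9, 11.8 and 11.6. Grin3b was below 1 TPM in every mouse, at 0.350, 0.336 and 0.431. Of the kainate receptor subunits, the auxiliary subunit Grik5 was highest, at 134, 172 and 168 TPM, followed by Grik4, at 28.5, 34.8 and 32.8, and Grik2, at 18.8, 33.9 and 35.4. Grik3 and Grik1 had means of 12.8 and 11.3 TPM.

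The 14 GABA-A receptor subunits, which form the chloride channels of fast inhibition, had lower sums, at 469, 672 and 673 TPM. The 16 glutamate receptor subunits summed to 901, 1497 and 1478. Medians over the members were close, at 16.7, 35.5 and 34.9 TPM for GABA-A and 17.4, 34.3 and 33.0 for glutamate receptor subunits. The sums therefore do not show that a typical GABA-A subunit was lower. Gabra5, the alpha subunit of extrasynaptic receptors typical of the hippocampus, had the highest mean, at 161, 130 and 134 TPM. It was higher in WT1 than in the other mice, unlike most subunits of the list, of which 12 of 14 were lowest in WT1, against 67.0% of all genes. Gabra4 was at 19.8, 42.3 and 41.5 TPM, Gabra2 at 15.04, 41.7 and 40.4 and Gabra3 at 18.5, 25.8 and 27.6. Of the beta subunits, Gabrb2 was at 14.1, 45.9 and 45.7 and Gabrb1 at 12.7, 29.3 and 29.4. The delta subunit Gabrd, which mediates tonic inhibition in granule cells, was at 18.4, 22.9 and 24.8. Gabrg1 and Gabrg3 were at means of 6.99 and 5.10 TPM. Gabre, at 0.422, 0.264 and 0.256, and Gabra6, which is typical of the cerebellum and was listed at 0 in WT1 and at 0.0997 and 0.819 in the others, were below 1 TPM in every mouse.

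The release machinery was expressed above the receptors. The 22 synaptic vesicle and release genes summed to 8320, 11311 and 11141 TPM, with the proton pump subunit Atp6v0c at 1737, 1566 and 1583 and synaptophysin, Syp, at 827, 1146 and 1121. Snap25, given above, lay below Syp in WT1 and above it in WT2 and WT3. The 20 postsynaptic scaffold and kinase genes summed to 4503, 7521 and 7365 TPM. After Nrgn and Camk2a, the highest mean was that of Camk2b, the beta subunit of CaM kinase II, at 489, 767 and 747. All 20 were lowest in WT1, against 67.0% of all genes, and the median ratio of WT1 to the mean of the others was 0.562. Immediate early genes, which neuronal activity induces, summed to 281, 661 and 616 TPM. Arc was at 35.9, 181 and 166 TPM, Egr1 at 33.2, 108 and 99.4 and Nr4a1 at 35.1, 78.2 and 75.9. In this list 12 of 14 genes were lowest in WT1, against 67.0% of all genes, while Bdnf was at 19.6, 16.5 and 17.5 TPM.

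Genes of protein synthesis and respiration showed the opposite order. The 32 cytosolic ribosomal protein genes summed to 47417, 19215 and 19533 TPM, and all 32 were highest in WT1, against 29.0% of all genes. Rpl41 was at 5227, 1392 and 1499 TPM, Rplp1 at 4667, 1523 and 1547 and Rps29 at 3662, 1461 and 1491. The 26 nuclear genes for subunits of oxidative phosphorylation summed to 27300, 14640 and 14642 TPM. Of these, 24 were highest in WT1, against 29.0% of all genes. Of the 13 mitochondrially encoded subunits of the same complexes, 10 were lowest in WT1, against 67.0% of all genes, and 1 was highest there. Cox8a, Cox4i1 and Cox6a1, subunits of cytochrome oxidase, led the nuclear list, at 2881, 1696 and 1587, at 2154, 1258 and 1257 and at 2142, 1259 and 1237 TPM. Of the 20 cytoskeleton genes, Tmsb4x, which encodes an actin-sequestering peptide, was at 4242, 2230 and 2238 TPM, the neuronal tubulins Tuba1a at 3737, 1603 and 1593 and Tubb2a at 2759, 1322 and 1343. In WT1, 12 of the 20 lay above and 8 below both other mice, against 29.0% and 67.0% of all genes. Those below included Map2, at 241, 458 and 462 TPM, and Kif5c, at 174, 374 and 370. Energy metabolism was steadier, with sums of 14957, 16517 and 16687 TPM over 18 genes. After Gapdh came Aldoa, another glycolytic enzyme, at 1386, 2105 and 2178 TPM, and Ckb, brain creatine kinase, at 1364, 1339 and 1357.

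Among the 9753 protein-coding genes with a mean of at least 10 TPM, WT1 was more than 2-fold above the mean of WT2 and WT3 for 399 genes (4.09%) and more than 2-fold below it for 969 (9.94%). Between WT2 and WT3, 1 and 4 genes differed by this much. The 10 highest ratios belonged to Gm9780, Plac9b, Defb11, Mia, Fabp7, Nts, 1500015O10Rik, S100a10, Dynlt1b and Ttr. Gm9780 was at 173, 11.0 and 8.74 TPM, the largest ratio, at 17.6. Fabp7, a fatty acid binding protein of radial glia and young astrocytes, was at 641, 97.05 and 96.99 TPM. S100a10, a calcium-binding protein of the annexin system, was at 219, 34.3 and 39.7 TPM, and Nts, the neuropeptide neurotensin, at 42.5, 6.90 and 6.22. Defb11, 1500015O10Rik and Ttr differed between WT2 and WT3 as well, with Defb11 at 61.5, 4.53 and 13.2 TPM and 1500015O10Rik at 145, 12.3 and 33.4. The 10 lowest ratios included those of Gm17571, Mal, Ermn, Gm45234, Gm10985, Mobp, Plekhh1, Fa2h and Opalin. Of these, Mal, Ermn, Mobp, Fa2h and Opalin are known from myelin or from myelinating oligodendrocytes. Mal was at 11.8, 311 and 242 TPM, Ermn at 1.81, 30.9 and 24.1 and Fa2h, which hydroxylates the fatty acids of myelin lipids, at 8.85, 70.5 and 58.4. Gm17571 was listed at 0 in WT1 and at 22.6 and 33.7 TPM in the others.

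Isoforms were compared within genes. The isoform with the highest mean TPM over the mice is called dominant, and its share is its TPM divided by the TPM of all annotated transcripts of the gene. In the 10641 genes with at least 2 annotated transcripts and a mean of at least 5 TPM, the median share was 65.9% in WT1, 60.4% in WT2 and 60.3% in WT3 (62.2% ± 3.17, SD, n = 3). The dominant isoform held at least 90% of the gene in 21.004%, 15.5% and 15.5% of the genes and less than 50% in 30.7%, 35.3% and 35.7%. The median share of the mean levels fell with the number of annotated transcripts, from 93.1% in the 1128 genes with 2 transcripts to 55.6% in the 2847 genes with 6 to 8 and 33.2% in the 928 genes with 13 or more. In the last class an equal split over the median of 15 transcripts would give 6.67%. The share of a leading isoform cannot fall below an equal split over the transcripts of its own gene.

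The dominant isoform was the same in all 3 mice for 8954 of the 10641 genes (84.1%). WT2 and WT3 shared it in 95.7% and WT1 and WT2 in 86.0%. By construction a transcript with a large share of the mean level leads in most mice. Agreement was complete across the mice in 49.4% of the 2094 genes with a share under 40% and in 99.9% of the 2949 genes with a share of 80% or more. Abundant genes can lie near such an even split. In Apoe the leading transcript took 57.0%, 46.8% and 44.1% of the gene, and in Actg1, which encodes cytoplasmic gamma actin, 59.5%, 39.1% and 40.6%; neither gene had the same leading transcript in all mice. These examples were chosen after their values were seen.

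At the extremes, 1151 genes had at least 5 annotated transcripts and a mean of at least 100 TPM. The lowest dominant shares belonged to Acin1, Srrt, Ncor1, Pcbp2 and Man2c1. In Acin1, a component of the exon junction complex with 26 annotated transcripts, the dominant one held 13.9%, 12.5% and 12.6%. In Pcbp2, a poly(C)-binding protein with 31 transcripts, it held 12.006%, 13.6% and 14.3%. The dominant transcript was a retained intron form in Srrt, Ncor1 and Man2c1 and an annotated processed transcript in Acin1. The highest shares included those of Map1b, Fth1, Rpl26 and Serinc1. The microtubule protein gene Map1b gave 99.7%, 99.4% and 99.5% of its TPM to a transcript of 11808 bases, and the ferritin heavy chain gene Fth1 gave 99.1%, 99.3% and 99.2% to a transcript of 929 bases.

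Most dominant isoforms of protein-coding genes were coding. Of 10587 such genes, the dominant transcript was annotated as protein-coding in 9517 (89.9%), as retained intron in 476 (4.50%), as processed transcript in 342 (3.23%) and as a target of nonsense-mediated decay in 251 (2.37%). It was marked as a principal isoform by the APPRIS annotation in 72.6%. Single mice had a dominant transcript that was not protein-coding in 11.0%, 10.02% and 10.25% of genes. Over all transcripts, retained introns held 5.66% of TPM in WT1, 7.50% in WT2 and 7.60% in WT3, and nonsense-mediated decay targets 2.33%, 2.39% and 2.42%. The most abundant genes of this kind, named after their values were seen, were Ppia, with 68.8%, 59.4% and 61.6% in a decay target of 746 bases, Ptms, which encodes parathymosin, with 56.1%, 58.1% and 62.5% in a processed transcript of 744 bases, and Rpsa, a ribosomal protein gene, with 67.8%, 69.8% and 68.4% in a decay target of 1101 bases. In Chd9, a chromatin remodeller, a processed transcript of 759 bases held 96.8%, 95.8% and 95.7% of a gene mean of 409 TPM. Sequence shared with a coding isoform or an overlapping copy can move such assignments, and this was not tested.

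Well-known exon choices of neuronal genes were read from the transcripts that contain each exon. The AMPA receptor genes use either of a pair of exons of 115 bases, flip and flop, which set how fast the receptor desensitizes. In each gene the flop exon lies upstream of the flip exon. The pair of Gria2 is shown to let the 36 bases in which its exons differ be seen, in capitals:
Gria2 flop (chr3:80691320-80691434, minus strand): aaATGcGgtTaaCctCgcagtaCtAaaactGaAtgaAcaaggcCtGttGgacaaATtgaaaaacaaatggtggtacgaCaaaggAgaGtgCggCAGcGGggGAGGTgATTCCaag
Gria2 flip (chr3:80690404-80690518, minus strand): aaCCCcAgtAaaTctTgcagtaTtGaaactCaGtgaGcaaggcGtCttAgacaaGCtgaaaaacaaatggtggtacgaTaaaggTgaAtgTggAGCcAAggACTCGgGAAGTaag
The exons of Gria1 differ in 36 bases as well, and both pairs keep the same reading frame:
Gria1 flop (chr11:57309769-57309883, plus strand): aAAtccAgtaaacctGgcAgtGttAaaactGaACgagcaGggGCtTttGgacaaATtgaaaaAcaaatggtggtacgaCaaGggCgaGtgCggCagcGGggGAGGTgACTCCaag
Gria1 flip (chr11:57310608-57310722, plus strand): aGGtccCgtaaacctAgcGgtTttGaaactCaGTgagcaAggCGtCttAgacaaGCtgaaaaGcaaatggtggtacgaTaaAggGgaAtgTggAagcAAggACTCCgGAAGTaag

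Flip forms exceeded flop forms in Gria2 and Gria3 in every mouse. Of the TPM in transcripts with either exon, flip took 77.4%, 86.9% and 87.4% in Gria2 and 100%, 87.6% and 85.6% in Gria3. Gria1 was near an even split in WT2 and WT3, where flip took 50.8% and 51.9%, and was at 63.9% in WT1. In Gria4 flip took 50.8% in WT1 and 35.1% and 32.4% in the others. The order of the genes, Gria3 and Gria2 above Gria1 and Gria1 above Gria4, was thus the same in the 3 mice, except that Gria2 lay above Gria3 in WT3. The transcripts with either exon covered 64.8% to 67.3% of the Gria2 TPM and 98.0% to 99.3% of that of Gria1. For Gria3 they covered only 68.4%, 54.1% and 51.3%, and for Gria4 75.2%, 83.0% and 81.0%, so that the shares hold for these transcripts and not for the whole gene.

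Snap25 contains a pair of exons of 118 bases that change in 31 bases, and use of the downstream exon is known to increase as the brain matures. These exons are shown because WT1 departed from the others in the TPM shares of the transcripts that contain them:
Snap25 upstream exon (chr2:136769743-136769860, plus strand): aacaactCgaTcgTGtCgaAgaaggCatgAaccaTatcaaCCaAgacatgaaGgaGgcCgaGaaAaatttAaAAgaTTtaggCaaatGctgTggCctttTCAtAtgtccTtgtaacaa
Snap25 downstream exon (chr2:136770057-136770174, plus strand): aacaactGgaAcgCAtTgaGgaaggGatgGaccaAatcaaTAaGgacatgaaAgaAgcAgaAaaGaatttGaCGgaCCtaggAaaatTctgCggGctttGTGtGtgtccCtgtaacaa
The upstream exon held 28.8% of the TPM in WT1 and 12.7% and 13.7% in WT2 and WT3. The level of the upstream form was close in all mice, at 149, 161 and 169 TPM, and the downstream form was at 368, 1107 and 1064 TPM, so that the shares differed through the downstream form. Each exon was read from 1 transcript, of 1014 bases for the upstream exon and 2116 bases for the downstream exon. The part of transcript length in this difference was not tested.

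The pyruvate kinase gene Pkm has exons of 167 bases for its M1 form, typical of differentiated tissues, and its M2 form, typical of growing cells and of astrocytes. M1 held 43.6%, 57.2% and 55.8%. The 63-base exon of Grin1, which alters the amino-terminal domain of the NMDA receptor subunit, was included in 11.1%, 11.0% and 10.8%, or 11.0% ± 0.155 (mean ± SD, n = 3). This was the exon choice with the smallest spread of those examined. In the clathrin light chain genes, neurons include an exon of 54 bases. Of the TPM in transcripts that include or skip it, forms with this exon held 77.1%, 68.1% and 69.4% in Clta. In Cltb they held 80.1%, 78.0% and 78.7%, and the transcripts compared covered 97.3%, 94.1% and 93.9% of the gene. Another Clta exon, of 36 bases, was in 56.6%, 66.7% and 67.0%, so that it was lowest in WT1. In App, the exon of 168 bases that encodes a protease inhibitor domain was in 8.47%, 9.27% and 10.5%, and the form of 695 codons without it held 90.8%, 90.1% and 88.9% of the gene. Thus the shares of the exons named for Grin1, Cltb and App were alike in all mice, while those of the AMPA receptor genes, Snap25 and Pkm separated WT1. This holds for the 63-base exon of Grin1 and not for all forms of the gene. The Grin1 form of 938 codons held 33.9%, 25.1% and 23.02%, and that of 922 codons 21.4%, 30.3% and 33.3%. The order of these forms was thus reversed in WT1, whereas the form of 901 codons held 12.3%, 12.4% and 11.6%.

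**Figure D4:**
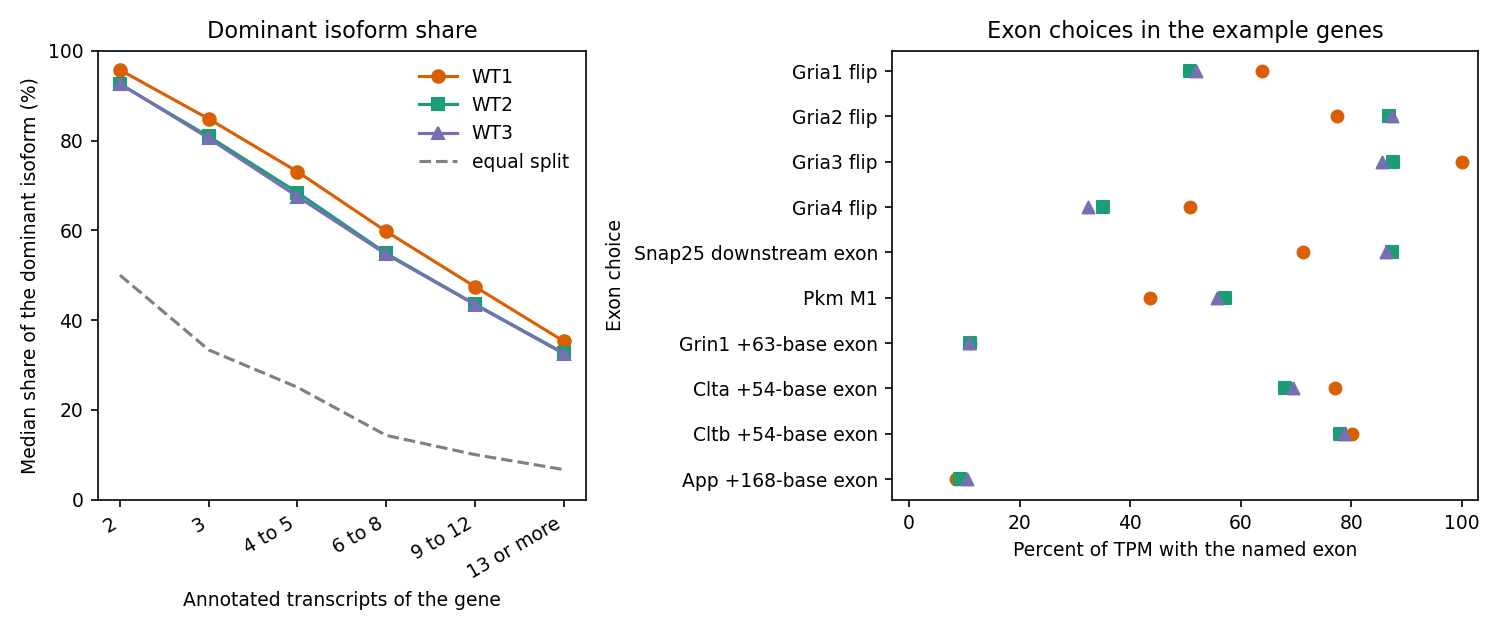
Left, median share (%) of the dominant isoform by number of annotated transcripts in each WT mouse, with the share an equal split would give as a dashed line. Right, percent of TPM in transcripts with the named exon in each mouse; WT1 lies apart for Snap25 (71.2% against 87.3% and 86.3%) and not for Grin1 (11.1% against 11.0% and 10.8%).

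Other example genes were grouped by the length of their coding sequence. In Map2, which encodes a dendritic microtubule protein, the long form of 1828 codons held 26.8%, 41.6% and 41.8%, and the short forms of 467 codons, known from immature neurons, 51.0%, 30.7% and 29.2%. Which short transcript carried this level also differed, since the transcript of 5125 bases took 41.2% in WT1 and 0.789% and 0.462% in the others. In Ncam1 the form of 725 codons held 16.9%, 40.2% and 39.2% and that of 848 codons 37.5%, 19.5% and 19.7%. In Mapt, which encodes tau, the form of 372 codons held 78.2%, 68.9% and 69.9%, and the form of 430 codons 4.55%, 8.06% and 8.18%. Ntrk2, the BDNF receptor gene, was divided alike in all mice, with 33.6%, 34.8% and 33.2% in the full-length forms of 821 codons that hold the kinase and 60.6%, 56.4% and 57.1% in the truncated form of 476 codons. In Mbp the form of 128 codons held 48.2%, 58.2% and 58.5%. Camk2b gave 82.3%, 78.0% and 77.8% to forms of 542 codons. Of the 2 transcripts of the GTPase gene Cdc42, the dominant one held 56.4%, 56.8% and 57.5%, and in Dnm1, the dynamin of vesicle recycling, the forms of 864 and 851 codons held 40.4%, 39.7% and 37.9% and 28.0%, 36.4% and 37.4%.

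Transcript length had a weak relation to level. Over the 46530 transcripts with a mean of at least 1 TPM, Spearman's correlation of length with TPM was 0.158 in WT1, 0.204 in WT2 and 0.201 in WT3. These are descriptions across transcripts, which share genes and a library. The sign depended on which transcripts were taken. Over the 14515 dominant transcripts of genes it was -0.121, 0.0167 and 0.0103, and over the 12412 of these that are protein-coding it was -0.262, -0.0953 and -0.100. The relation was thus positive over all transcripts and negative over the dominant coding ones. In the latter the median TPM was 35.4, 23.06 and 22.99 for 500 to under 1000 bases and 6.66, 11.7 and 11.4 for 8000 bases or more. Of the 974 dominant coding transcripts in the first of these classes, 196 (20.1%) reached 100 TPM in all mice, and of the 567 in the last, 6 (1.06%). The most abundant genes had the shortest dominant transcripts. The median length was 2799 bases in protein-coding genes from 10 to under 100 TPM, 1911 in those from 100 to under 1000 TPM and 929 in the 87 genes at 1000 TPM or above, and the GC content of the dominant transcripts had medians of 50.6%, 53.3% and 53.3%.

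Because TPM divides by length, the share of reads differs. In WT2, transcripts of 500 to under 1000 bases with a mean of at least 1 TPM held 26.7% of TPM and 7.89% of estimated counts, and those of 4000 to under 8000 bases held 11.1% and 30.1%. Among protein-coding transcripts of the nuclear genome above 100 TPM in each mouse, 833 in all, the shortest belonged to Gm17374, of 102 bases, at 211, 289 and 360 TPM, to Snurf, of 216 bases, at 691, 887 and 881, to CAAA01147332.1, of 243 bases on an unplaced scaffold, at 660, 313 and 248, to Rps15a, of 250 bases, at 350, 162 and 135, and to Rpl28, of 312 bases, at 437, 170 and 195. Several of these are close in length to a sequenced fragment, for which effective length is poorly defined: the length subtracted from a transcript to give its effective length was 191 bases in WT1 and 168 and 169 in the others. The longest included those of Map1b, of 11808 bases, at 137, 188 and 179 TPM, of the astrocyte glutamate transporter Slc1a2, of 11595 bases, at 279, 537 and 539, of the microtubule protein gene Map1a, of 10145 bases, at 131, 271 and 265, and of the spectrin gene Sptbn1, of 8238 bases, at 137, 187 and 193.

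Among dominant coding transcripts the departure of WT1 moved with transcript length. The median log2 ratio of WT1 to the mean of WT2 and WT3, computed on TPM + 0.1, was 0.43 under 500 bases, 0.70 for 500 to under 1000, 0.22 for 1000 to under 2000, -0.26 for 2000 to under 4000, -0.58 for 4000 to under 8000 and -0.80 for 8000 or more. Over all 46530 transcripts the medians were negative in every class and did not fall steadily, at -0.51 and -0.54 in the shortest classes, -0.16 for 1000 to under 2000 bases, -0.44 and -0.63 in the next classes and -0.82 for 8000 bases or more. Between WT2 and WT3 the medians for dominant coding transcripts ran from -0.01 to 0.03 over the same classes. By GC content the WT1 medians ran from -0.47 under 40% to -0.13 at 55% or more, a narrower range. The gene lists above differ in length. The dominant transcripts of the ribosomal list had a median of 699.5 bases and those of the nuclear oxidative phosphorylation list 669.5, and both lists were higher in WT1. Those of the postsynaptic list had a median of 4421.5 bases and those of the glutamate receptor list 5043.5, and both were lower in WT1. Other lists did not follow this order. The mitochondrially encoded mRNAs had a median of 784 bases and a median WT1 ratio of 0.633, the blood list had 628 bases and 0.4295, and the immature neuron list had 4795 bases and 1.28. The myelin list had a median length of 2182 bases and a median ratio of 0.186. The part of transcript length in the differences between the mice was not tested.

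**Figure D5:**
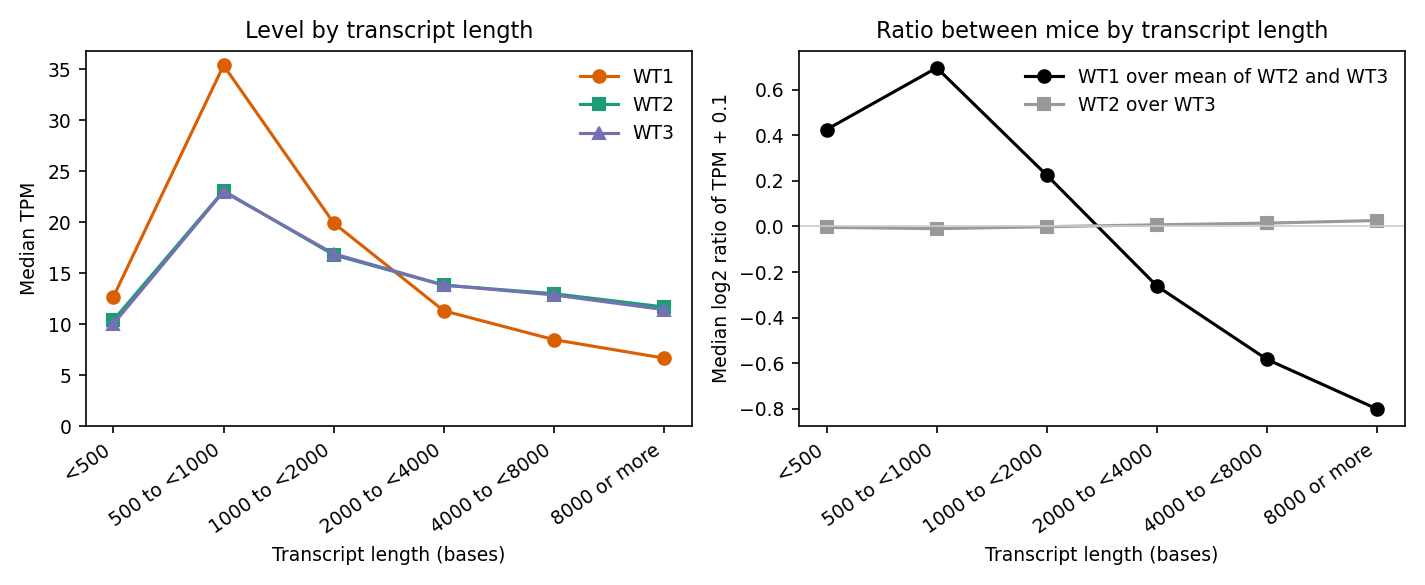
Dominant protein-coding transcripts by length in bases: median TPM in each WT mouse (left) and median log2 ratio of TPM + 0.1 of WT1 to the mean of WT2 and WT3, and of WT2 to WT3 (right). The WT1 line is at 0.43 under 500 bases and falls from 0.70 at 500 to under 1000 bases to -0.80 at 8000 bases or more, while the line of WT2 over WT3 stays between -0.01 and 0.03.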

How the data were processed

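RNA libraries were made from polyadenylated RNA with a stranded kit, per the labels. The authors quantified transcripts with kallisto (version 0.46.0 in the submitters' processing notes, a different one in the study's methods, strand setting not given) and deposited, for each mouse, estimated counts and TPM of 118783 transcripts, and a table of gene TPM summarised from them with tximport. Library totals were 194098391 to 249217021 estimated counts. No read was realigned. Transcripts were matched by identifier to the GENCODE M21 annotation of GRCm38, 116710 of 118783, and the unmatched held 0.681% to 0.760% of TPM.

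A gene was counted as detected at 1 TPM in each of the 3 mice. Dominant isoform shares were computed from TPM in genes with at least 2 annotated transcripts and a mean of at least 5 TPM. Exons were read from the annotation and their sequences from the transcript sequences; flip and flop exons were told apart by the known codon difference. Ratios of length classes used a pseudocount of 0.1 TPM. Copies were matched with BLAST+ 2.17.0. Other values used Python 3.11.15, pandas 2.3.3 and SciPy 1.17.1, and the functions were tested on simulated data.

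Only a single group was described, so no test was made and spread is given as SD over 3 mice; it measures the differences between these samples alone. Kallisto divides reads that fit several transcripts, so values of copies and of minor isoforms are estimates. The members and the gene lists were chosen with earlier results of these data known. Genes named in the text are the 10 with the highest mean TPM outside the mitochondrial genome, the 13 mitochondrial mRNAs, the 3 highest of each list and its members under 1 TPM in each mouse, all glutamate and GABA-A receptor subunits and isoform examples, the 5 lowest and 5 highest dominant shares, the 10 highest and 10 lowest WT1 ratios, the 5 shortest and 5 longest abundant coding transcripts, and Prmt9. Coding transcripts stand for the transcripts of protein-coding genes in that rule, which changed none of the 10. Alternatives changed the TPM minimum, the unit, the transcripts or list members that entered and the mice. Some genes that this rule names are not reported here.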

Additional observations from a re-analysis of the deposited data

How the results depend on the processing

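The counts of detected genes stayed between 13017 and 15462 under every alternative. With the mitochondrially encoded genes left out of the total, the 100 most abundant genes held 21.9% of the rest in place of 28.5%, and they held 17.4% of estimated counts. The mitochondrial share was 4.16% of estimated counts in place of 9.95% of TPM. In estimated counts the median dominant share was 76.1% in place of 62.2%, 5.91% of genes had a dominant transcript that was not protein-coding in place of 10.1%, and Spearman's correlation of length with level was 0.709 in place of 0.188, since counts are not divided by length. With the GENCODE basic transcripts alone the median dominant share was 76.0%, 5756 of 6610 genes had the same dominant isoform in all mice, and 0% had a dominant transcript that was not protein-coding, because that set leaves such transcripts out of coding genes. A minimum of 1 TPM gave 11.2% for the last. The correlation of length with level was 0.0617 over every transcript above 0 TPM in each mouse, 0.111 over protein-coding transcripts and -0.0314 over dominant transcripts. The negative sign of the last mean rests on WT1, which was at -0.121, against 0.0167 in WT2 and 0.0103 in WT3. The ratio of pan-neuronal to glial level was 3.85 from medians over the members in place of 0.372 from sums. The median coefficient of variation was 6.96% on log2(TPM + 1).

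WT1 decided the spread. Leaving out each mouse in turn, the median coefficient of variation was between 2.50% and 26.5%, the lowest without WT1. Without WT1, 14981 genes were detected, the mitochondrial share was 11.2%, the median dominant share 60.3%, the ratio of neuronal to glial level 0.300 and the correlation 0.197, and 95.7% of genes kept their dominant isoform across the mice left. No paired analysis was possible because a single group was described and no result comes from a test. Of 55 alternatives, 39 moved their value by less than the SD over the mice or kept a count within 1.5 times. With 3 mice of which 1 stood apart, the SD describes these mice and says little of others, and the deposited levels give no interval for the division of reads between alike sequences.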
